A study of Mus musculus with 12 samples.

Results

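The genes described here are 10 meiosis genes, Stra8, Smc1b, Rec8, Sycp1, Sycp2, Sycp3, Syce1, Spo11, Dmc1 and Msh5, measured with 16 of the 41174 probes on the array, which carry 27670 gene names in all. Members were chosen by name: every probe that the array annotates to one of these genes was taken, whatever its value. For 7 of the genes the array uses the current symbol. The other 3 stand under older names (Dmc1h for Dmc1, Rec8L1 for Rec8 and 4930518F03Rik for Sycp2) and were matched through their accessions.

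RNA came from E14 cells, a line of mouse embryonic stem cells, of which a well of a 6-well dish was exposed for 72 hr to 0.33 ng/ul esiRNA with a lipid transfection reagent, Lipofectamine. An esiRNA is a pool of short interfering RNAs cut from a long double-stranded RNA. In the p400 knockdown (n = 4) it was directed at p400 (Ep400), the ATPase of the Tip60-p400 chromatin remodelling complex, and in the Tip60 knockdown (n = 4) at Tip60 (Kat5, Htatip on the array), the acetyltransferase of that complex. The control esiRNA, given to the EGFP samples, was directed at EGFP, a fluorescent reporter, so every group had been transfected. The 4 p400 arrays were two-colour arrays with p400 and EGFP RNA on the same array and the dyes swapped between arrays. The Tip60 cells and another 4 EGFP samples were hybridised to single-colour arrays, and whether both sets of EGFP RNA came from the same cultures is not stated. The submitters call the replicates biological, and they left Tip60 replicate 3 out of their own comparison for its outlying intensity profile. It was left out of the test here too, and its values are given beside the others.

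Meiosis is the pair of divisions by which germ cells halve their chromosome set. Retinoic acid and STRA8 switch on the programme, REC8 and SMC1B form meiosis-specific cohesin rings, SYCP2 and SYCP3 build the axes of the chromosomes, and SYCP1 and SYCE1 zip the paired axes into the synaptonemal complex. SPO11 breaks the DNA, DMC1 carries the broken ends into the partner chromosome, and MSH5 stabilises the joints that become crossovers. In embryonic stem cells many of these genes are held back by a Polycomb complex with E2F6, MGA and MAX and by DNA methylation, yet some of them are transcribed at appreciable levels.

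The targeted genes were lower in their own knockdowns, Ep400 on its brightest probe and 1 other. Ep400 had log2 ratios of -0.65, -0.77, -0.24 and -0.67 on its brightest probe in p400 knockdown over EGFP (mean -0.58, limma adjusted p = 0.00471). Of the other Ep400 probes, 1 was lower (-0.72, adjusted p over probes 0.00576), with 0.06, -1.12, -0.57 and -1.24 on the 4 arrays. Another stood at 0.22 (adjusted p over probes 0.0787), above 0 on 3 of 4 arrays, and 1 rose above background on none of the p400 arrays. The probes thus disagree on the direction and the size. Whether a probe lies within the stretch matched by the esiRNA is not stated. Kat5 was 2.80-fold lower in Tip60 knockdown than in EGFP (limma adjusted p = 1.27e-05), and its p400 ratio was -0.43 (0.00969). The p400 arrays had 27598 to 30752 spots well above background per dye, and the single-colour arrays 25073 to 30107, with 22188 on Tip60 replicate 3. All 5 stem cell markers of a list of Pou5f1, Nanog, Sox2, Zfp42 and Esrrb were well above background on the single-colour arrays. Each p400 array lay on slide 1, while slides 2 and 3 each held both Tip60 and EGFP samples.

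Over all genes, 35.9% of the 18691 tested were called in p400 knockdown (limma, Benjamini-Hochberg adjusted p below 0.05), 20.5% higher and 15.4% lower. In Tip60 knockdown 24.8% of 16949 were called, 15.0% higher and 9.82% lower. Against this background, 7 of the 10 meiosis genes were called in p400 knockdown, 5 higher (Stra8, Sycp1, Syce1, Sycp2 and Smc1b) and 2 lower (Sycp3 and Rec8), and 3 were not called (Dmc1, Msh5 and Spo11). In Tip60 knockdown 5 of the 9 tested were called, 4 higher (Smc1b, Sycp1, Syce1 and Sycp2) and 1 lower (Sycp3), while Msh5 had no probe bright enough for the test. The members' median log2 fold change was 0.25 in p400 knockdown, against 0.01 over all genes tested, and it was 0.13 with arrays centred on their median without loess and 0.45 where every array had to show a probe above background for both RNAs. In Tip60 knockdown the median was 0.34, against 0.01 over all genes tested. That median is the value of Spo11, a dim probe that was not called, and it was 0.17 without EGFP replicate 4, 0.63 without EGFP replicate 3 and 0.11 within slide 2. Both RNAs of a comparison were detected on 3 or more arrays by every probe that stood for a member, so none entered through one RNA alone. The share of calls that were higher depended on the scaling. It was 57.1% for p400, 29.8% with arrays centred on their median without loess and 74.1% with arrays scaled to a common spread. For Tip60 it was 60.5%, 23.0% with arrays centred on their median, 50.2% after normexp and quantile normalization and 50.5% in the series matrix values. Median centring moved the median of all genes to -0.11 in p400 and to -0.20 in Tip60 knockdown.

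**Figure D1:**
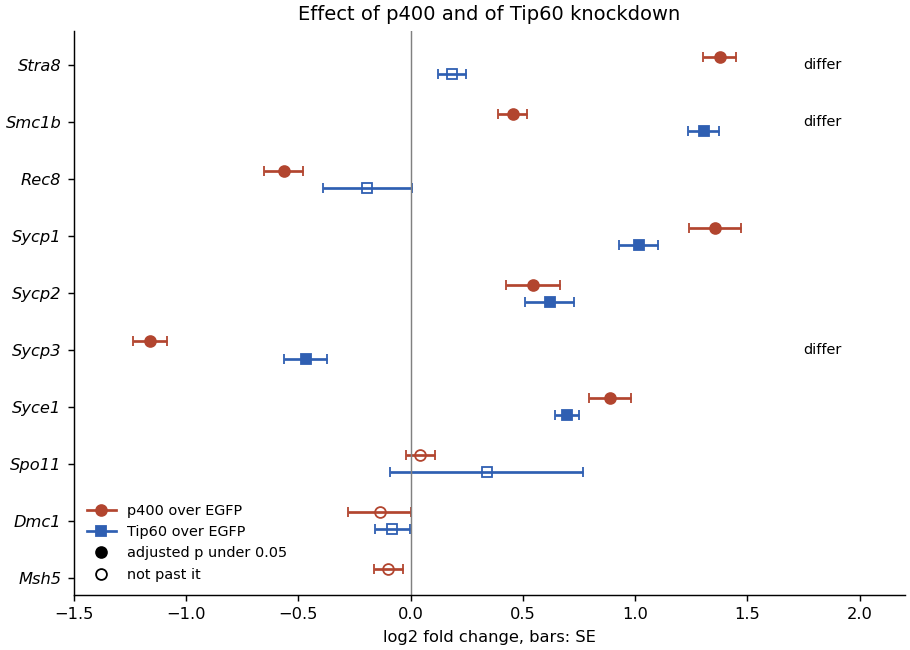
Log2 fold change of each meiosis gene in p400 over EGFP (red circles) and Tip60 over EGFP (blue squares), with standard errors as bars; filled symbols passed an adjusted p of 0.05 in limma, and "differ" marks genes whose p400 and Tip60 effects differed. Stra8 sits at 1.38 in p400 and 0.18 in Tip60 knockdown, Smc1b at 0.45 and 1.31, and Sycp3 at -1.16 and -0.47.

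Stra8, which germ cells need to enter meiosis and which retinoic acid induces, was called in p400 knockdown and not in Tip60 knockdown. Its RNA was 2.6-fold higher in p400 knockdown than in EGFP. The log2 ratios were 1.33, 1.57, 1.32 and 1.28 on the 4 arrays (mean 1.38 ± 0.07 SE, limma adjusted p = 0.000302). All 4 arrays lay well above 0, close to one another, where 28.5% of all genes were above 0 on all 4. In Tip60 knockdown its log2 level relative to the array's 75th percentile was 3.49, 3.58 and 3.60 in replicates 1, 2 and 4 and 3.58 in replicate 3, against 3.29, 3.42, 3.44 and 3.33 in EGFP. Every Tip60 level lay above every EGFP level, a pattern that 19.5% of all genes tested also showed. The difference of 0.18 ± 0.06 SE did not pass the test (limma adjusted p = 0.0691), and it was -0.03 with arrays centred on their median. With Tip60 replicate 3 included it was 0.19 (adjusted p = 0.0352). The p400 effect exceeded the Tip60 effect by 1.19 (95% interval 0.96 to 1.43, adjusted p = 0.0176), a test in which 4.79% of 16425 genes were called. With the replicate number as a block in the Tip60 fit the difference was 1.17 (adjusted p = 0.0946), which is not a call. The Stra8 probe lies at chr6:34870433-34870492 (build mm7), and its processed signal in EGFP cells ran from 9833 to 13510. In bulk RNA, fewer cells with the transcript and less transcript per cell cannot be told apart, here and in all results below.

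The promoters of the 3 genes whose effects differed between the knockdowns, and of Sycp1, which was higher in both, are printed so that their regulatory letters can be read beside the values. They are the RefSeq sequences from 250 bases before to 50 bases after the annotated start, in build GRCm38.p6, which differs from the build of the probe positions. Capitals mark matches on either strand to the letters TCCCGC (E2F6 core), CACGTG (the E-box that MGA and MAX bind), CNCCTCAG (STRA8-MEIOSIN) and AGGTCA (retinoic acid receptor). AGGTCA is a single unit of a retinoic acid receptor site and not the whole site. The promoter of Stra8 (chr6:34920698-34920997, plus strand) held AGGTCA at bases -194 to -189 and -38 to -33 counted from the start and none of the other letters. That of Smc1b (chr15:85131908-85132207, minus strand) held TCCCGC at -47 to -42. That of Sycp3 (chr10:88459337-88459636, plus strand) held 2 copies of CACGTG at -64 to -59 and -43 to -38, the reverse complement of TCCCGC at -147 to -142 and AGGTCA at -213 to -208. That of Sycp1 (chr3:102936051-102936350, minus strand) held CACGTG at -94 to -89, TCCCGC at 3 to 8 and the reverse complement of the STRA8-MEIOSIN letters at 33 to 40.
Stra8: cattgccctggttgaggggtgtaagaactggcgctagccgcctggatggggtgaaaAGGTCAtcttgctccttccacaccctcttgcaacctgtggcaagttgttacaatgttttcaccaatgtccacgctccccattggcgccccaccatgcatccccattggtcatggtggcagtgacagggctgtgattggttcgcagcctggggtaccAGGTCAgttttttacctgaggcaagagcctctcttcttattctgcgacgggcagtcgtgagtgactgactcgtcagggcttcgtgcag
Smc1b: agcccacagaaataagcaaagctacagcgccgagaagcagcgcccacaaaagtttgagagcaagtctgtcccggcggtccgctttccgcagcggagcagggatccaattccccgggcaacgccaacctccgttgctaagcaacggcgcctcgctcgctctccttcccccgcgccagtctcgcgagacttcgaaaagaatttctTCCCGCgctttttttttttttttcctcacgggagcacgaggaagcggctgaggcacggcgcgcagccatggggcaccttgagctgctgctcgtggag
Sycp3: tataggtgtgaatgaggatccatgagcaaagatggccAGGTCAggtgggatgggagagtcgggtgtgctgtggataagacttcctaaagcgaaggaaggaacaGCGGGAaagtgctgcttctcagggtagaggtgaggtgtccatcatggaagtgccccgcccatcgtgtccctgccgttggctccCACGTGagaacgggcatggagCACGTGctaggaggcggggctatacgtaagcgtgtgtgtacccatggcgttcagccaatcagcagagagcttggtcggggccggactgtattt
Sycp1: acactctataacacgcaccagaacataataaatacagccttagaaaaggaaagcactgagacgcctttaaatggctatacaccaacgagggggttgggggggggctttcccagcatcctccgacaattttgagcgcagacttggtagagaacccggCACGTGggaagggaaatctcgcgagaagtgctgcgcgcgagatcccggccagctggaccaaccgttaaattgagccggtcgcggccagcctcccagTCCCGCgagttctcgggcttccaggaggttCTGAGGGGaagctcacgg

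Promoters were at hand for 9 of the 10 members (not Spo11). Among these, 6 held TCCCGC (Sycp1, Sycp3, Smc1b, Rec8, Dmc1 and Msh5), against 20.0% of all 32851 promoters of the table. CACGTG stood in 2 (7.15% of all), CNCCTCAG in 2, Sycp1 and Msh5 (7.94%), and AGGTCA in 2 (16.3%). Sycp2 and Syce1, both higher in either knockdown, held none of the 4. The 6 with TCCCGC included members that were higher (Sycp1 and Smc1b), lower (Sycp3 and Rec8) and not called (Dmc1 and Msh5) in p400 knockdown. All 9 promoters had more CpG dinucleotides than the median of 7 in all promoters, from 10 in Stra8 and Sycp2 to 29 in Smc1b. A match shows that the letters are present and says nothing of binding.

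**Figure D2:**
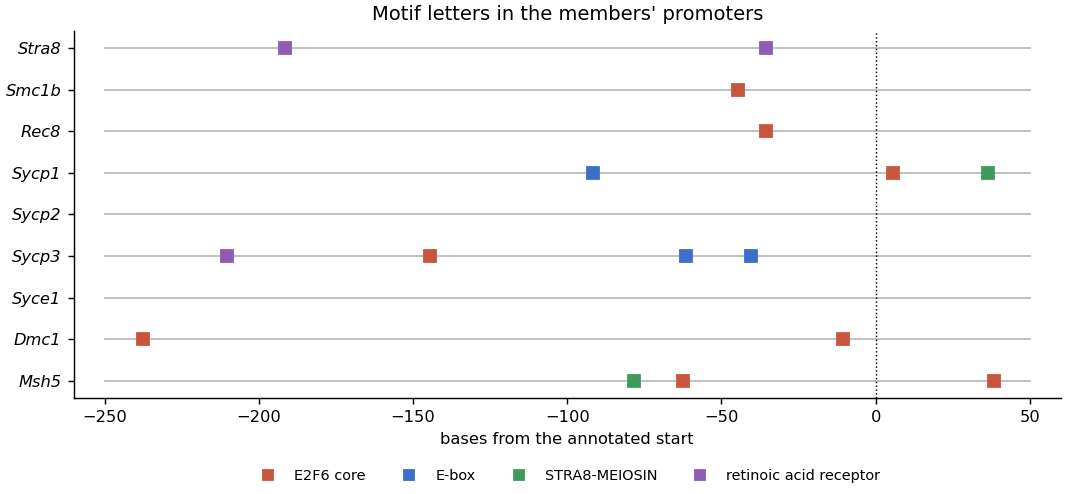
Positions of the 4 motifs in the 9 promoters, in bases from the annotated start (dotted line); each grey line is a promoter and each square a match on either strand. TCCCGC matches (red) fall in 6 promoters, the E-box (blue) only in Sycp1 and Sycp3, and Sycp2 and Syce1 are empty.

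Of the 2 meiotic cohesin subunits, Smc1b was higher in both knockdowns and Rec8 was lower in p400 knockdown. Smc1b, the meiosis-specific partner of SMC3, had log2 ratios of 0.29, 0.69, 0.24 and 0.60 on the p400 arrays (0.45 ± 0.06 SE, limma adjusted p = 0.00415). All 4 were above 0, as for 28.5% of all genes, and both arrays with p400 RNA in Cy3 (replicates 2 and 4) stood above both with it in Cy5. The p400 effect was 0.13 (adjusted p = 0.204) with arrays centred on their median without loess, where the median of all genes was -0.11. In Tip60 knockdown the Smc1b levels were 2.06, 2.05 and 2.16 in replicates 1, 2 and 4 and 2.03 in replicate 3, against 0.77, 0.89, 0.80 and 0.68 in EGFP. The groups were far apart relative to their spread, and the fold change was 2.47 (log2 1.31 ± 0.07 SE, limma adjusted p = 1.65e-05). The p400 effect was 0.85 below the Tip60 effect (difference -0.85, 95% interval -1.08 to -0.62, adjusted p = 0.0213). Without p400 replicate 3 that difference was -0.84 with an adjusted p of 0.0573, and with the replicate block it was -0.86 with an adjusted p of 0.0952. The EGFP signal of this probe was itself unlike on the 2 kinds of array, at 6259 to 11070 on two-colour and 1564 to 2203 on single-colour arrays, while that of Syce1 was 3261 to 5890 on two-colour and 4003 to 5631 on single-colour arrays. The part of this gap in the difference between the effects was not tested. The probe is at chr15:85147084-85147143 (build mm7).

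Rec8, the meiotic kleisin that closes the cohesin ring, was read by 2 probes on chromosome 14. On the brighter one, at chr14:50492672-50492731 (build mm7), the p400 log2 ratios were -0.48, -0.41, -0.92 and -0.45 (-0.57 ± 0.09 SE, limma adjusted p = 0.00539). All 4 were below 0, as for 24.5% of all genes, with replicate 3 the lowest. The other probe, at chr14:50491716-50492100, gave -0.23, -0.41, -0.16 and -0.23 (mean -0.26, limma adjusted p over probes 0.0327, where 33.1% of probes were called). Both probes thus read lower in p400 knockdown, to different degrees. In Tip60 knockdown the brighter probe stood at 1.26, 2.05 and 1.22 in replicates 1, 2 and 4 and 1.22 in replicate 3, against 1.64, 1.73, 1.83 and 1.61 in EGFP. Tip60 replicate 2 lay above all EGFP samples and the other 3 below all of them, and the difference of -0.19 ± 0.20 SE was not called (limma adjusted p = 0.536). Without Tip60 replicate 2 it was -0.46 (adjusted p = 0.0115). The other probe stood at -1.07, -0.76 and -1.14 in Tip60 knockdown against -0.67, -0.73, -0.53 and -0.73 in EGFP, with a difference of -0.33 (limma adjusted p over probes 0.0604, where 22.7% of probes were called). On it all these Tip60 samples were lower, as for 16.6% of all genes tested.

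Sycp3, which with SYCP2 forms the axis of meiotic chromosomes, was the member that fell furthest. Its log2 ratios in p400 knockdown were -1.11, -1.18, -1.34 and -0.998 (-1.16 ± 0.08 SE, limma adjusted p = 0.000465), which is 2.23-fold lower than in EGFP. No array came near 0, and the mean ranked 11th from the lowest of 18691 genes. In Tip60 knockdown the level was 1.33, 1.40 and 1.34 in replicates 1, 2 and 4 and 1.45 in replicate 3, against 1.80, 2.04, 1.82 and 1.64 in EGFP. All Tip60 samples were lower than all EGFP samples, as for 16.6% of all genes tested, and the difference was -0.47 ± 0.09 SE (limma adjusted p = 0.011). The fall was 0.69 deeper on the log2 scale in p400 knockdown (difference -0.69, 95% interval -0.99 to -0.40, adjusted p = 0.0386). That call was lost, with adjusted p between 0.0529 and 0.0838 and differences of -0.64 to -0.71, when p400 replicate 2 or 3 or Tip60 replicate 1, 2 or 4 was left out, and with the replicate block it was -0.69 (adjusted p = 0.113).

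Sycp1 codes for the transverse filaments that join the paired axes, and it was higher in both knockdowns. On the p400 arrays the log2 ratios were 1.29, 1.71, 1.39 and 1.03 (1.36 ± 0.12 SE, limma adjusted p = 0.00105), 2.56-fold higher than in EGFP. Tip60 replicates 1, 2 and 4 had levels of -0.58, -0.69 and -0.75 and replicate 3 of -0.62, against -1.81, -1.51, -1.77 and -1.67 in EGFP. Every Tip60 level lay above every EGFP level, as for 19.5% of all genes tested, and the fold change was 2.02 (log2 1.02 ± 0.09 SE, limma adjusted p = 0.000212). The effects differed by 0.34 (p400 minus Tip60, 95% interval -0.01 to 0.69, adjusted p = 0.211), which is not a call. The pseudogene Sycp1-ps1 has a probe of its own on chromosome 7, which read higher in both as well, by 1.25 in p400 (limma adjusted p = 0.00108) and 0.79 in Tip60 knockdown (0.00311). Both probes share no run longer than 7 bases, but pseudogene RNA bound to the Sycp1 probe was not tested, so the source of the Sycp1 signal is uncertain. The probes of Sycp3 and Sycp1 are printed because each of them joins pieces of a spliced transcript: their 60 bases span 3091 bases of the genome at chr10:88027463-88030553 (plus strand) and 672 bases at chr3:102647366-102648037 (minus strand, both build mm7).
Sycp3 probe: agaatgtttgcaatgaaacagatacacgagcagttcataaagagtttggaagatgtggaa
Sycp1 probe: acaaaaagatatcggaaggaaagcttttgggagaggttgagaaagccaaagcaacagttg

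Sycp2, the partner of SYCP3 in the axis, was dim, and its call in Tip60 knockdown depended on the scaling. The brightest of its 3 probes (chr2:178846208-178846261, build mm7) had processed signals of 73.52 to 85.02 in Tip60 and 42.29 to 55.57 in EGFP cells. The p400 log2 ratios were 0.43, 1.003, 0.47 and 0.29 (0.55 ± 0.12 SE, limma adjusted p = 0.0159). All were above 0, as for 28.5% of all genes, with replicate 2 the highest. The p400 effect ranged from 0.37 to 1.20 over the alternatives, all of which kept the call. Another probe, at chr2:178880436-178881800, gave a mean ratio of 0.26 (limma adjusted p over probes 0.034), and the remaining one stayed at background on all arrays. The Tip60 levels were -3.79, -3.997 and -3.88, against -4.73, -4.29, -4.49 and -4.53 in EGFP, with a difference of 0.62 ± 0.11 SE (limma adjusted p = 0.00571). All 3 Tip60 levels lay above all EGFP levels, as for 19.5% of all genes tested. Replicate 3, where the probe was not well above background, stood at -4.56, among the EGFP samples. The difference was 0.15 (adjusted p = 0.186) after normexp and quantile normalization, 0.17 (0.133) in the series matrix values and 0.45 (0.0984) with replicate 3 included.

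Syce1, a component of the central element of the synaptonemal complex, was higher in both knockdowns, with little spread on the single-colour arrays. The p400 log2 ratios were 0.60, 1.12, 0.99 and 0.84 (0.89 ± 0.09 SE, limma adjusted p = 0.00168). Tip60 levels were 2.77, 2.74 and 2.79 in replicates 1, 2 and 4 and 2.74 in replicate 3, against 2.12, 2.099, 2.02 and 2.03 in EGFP. The Tip60 samples stood clear of the EGFP samples by far more than either group's range, with a difference of 0.70 ± 0.05 SE (limma adjusted p = 0.000113). Tip60 levels all above the EGFP levels, by any margin, were seen for 19.5% of all genes tested. The p400 and Tip60 effects differed by 0.19 (95% interval -0.07 to 0.45, adjusted p = 0.318). The probe is at chr7:137194617-137194676 (build mm7).

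**Figure D3:**
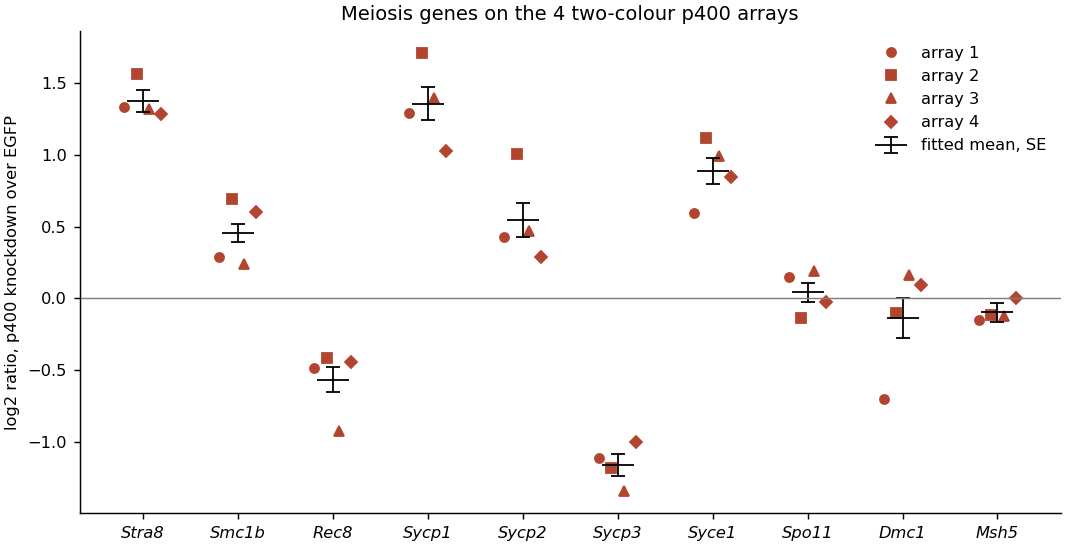
Log2 ratio of p400 knockdown over EGFP for the brightest tested probe of each gene, by array (red symbols), with the fitted mean and its standard error in black. Stra8, Smc1b, Sycp1, Sycp2 and Syce1 are above 0 on all 4 arrays, Rec8 and Sycp3 below 0 on all 4, and Dmc1 and Spo11 lie on both sides.

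The 3 recombination genes were not called in either knockdown where they could be tested. Spo11, which makes the double-strand breaks that start recombination, had p400 log2 ratios of 0.15, -0.13, 0.19 and -0.03 (0.04 ± 0.07 SE, limma adjusted p = 0.645). Its Tip60 levels were -5.20, -4.18 and -4.52, against -4.60, -5.39, -4.09 and -5.80 in EGFP (difference 0.34 ± 0.43 SE, limma adjusted p = 0.622). The groups overlapped over a wide range at processed signals of 31.96 to 66.13 in Tip60 and 17.57 to 73.01 in EGFP cells. Tip60 replicate 3 stood apart at -1.67, a processed signal of 366.6. The other Spo11 probe was well above background on 1 of the 3 Tip60 arrays and on none of the EGFP arrays.

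Dmc1, the meiotic recombinase, gave p400 log2 ratios of -0.70, -0.10, 0.16 and 0.09 (-0.14 ± 0.14 SE, limma adjusted p = 0.482). Replicate 1 was far below the other 3: without it the mean was 0.08, and without replicate 3 it was -0.35 (adjusted p = 0.0317). The Tip60 levels of -1.64, -1.66 and -1.84 overlapped the EGFP levels of -1.68, -1.60, -1.73 and -1.52 (difference -0.08 ± 0.08 SE, limma adjusted p = 0.499). Replicate 3 stood at -1.96. Msh5, the partner of MSH4 in crossover formation, had p400 ratios of -0.15, -0.12, -0.12 and -0.0013 on its brightest tested probe (-0.10 ± 0.07 SE, limma adjusted p = 0.283), and -0.44 (adjusted p = 0.0164) in the log ratios as deposited. Of its 3 probes, 1 was well above background on no array, 1 on 2 of 4 EGFP and 1 of 3 Tip60 single-colour arrays, and the probe tested for p400 on none of the EGFP and 1 of the Tip60 single-colour arrays.

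**Figure D4:**
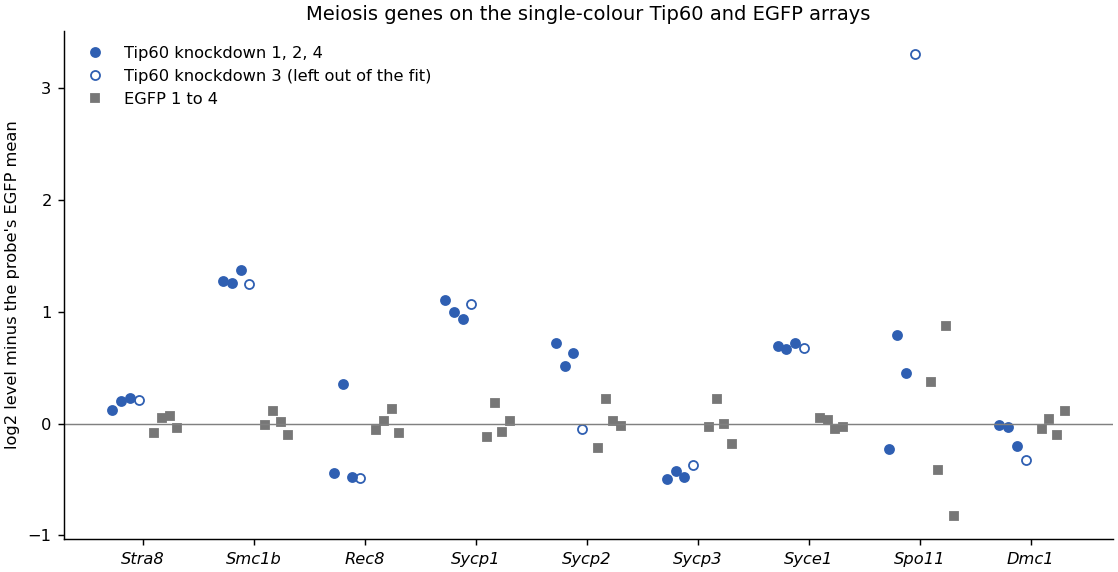
Log2 level of each gene on the single-colour arrays minus the mean of its EGFP samples, with Tip60 replicates 1, 2 and 4 as filled blue circles, Tip60 replicate 3 as an open circle and the 4 EGFP samples as grey squares to their right. Smc1b, Sycp1, Sycp2 and Syce1 in Tip60 knockdown lie above the EGFP samples and Sycp3 below, Sycp2 replicate 3 lies among the EGFP samples, and Spo11 replicate 3 stands more than 3 log2 units above the EGFP mean.

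The knockdowns shared the direction of 5 calls, with Sycp1, Sycp2, Smc1b and Syce1 higher and Sycp3 lower in both. Over the 16851 genes tested in both, 10.6% were called higher and 5.65% lower in both. The difference between the effects was called for 3 of 9 members, Stra8 higher in p400 and Smc1b and Sycp3 lower in p400 than in Tip60 knockdown. Over the 16425 genes of that test, 2.49% were called higher and 2.30% lower in p400. The difference sets two-colour against single-colour measurements, and platform and knockdown cannot be told apart in it. Within slide 2, which held Tip60 replicates 2 and 4 and EGFP replicates 1 and 3, the Tip60 differences were 1.32 for Smc1b, 1.07 for Sycp1, 0.70 for Syce1, 0.67 for Sycp2 and -0.44 for Sycp3, and all 5 passed the test there.

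In 6 lists of other genes of the pathway, 11 of the 49 genes tested in p400 knockdown were called higher (22.4%) and 9 lower (18.4%), near the 20.5% and 15.4% over all genes. In Tip60 knockdown 12 of 44 were called higher (27.3%) and 2 lower (4.55%), against 15.0% and 9.82% over all genes. Of 9 genes of entry into meiosis, 3 rose and 1 fell in p400 knockdown, and of the 7 tested in Tip60 knockdown 3 rose and 1 fell (list medians 0.12 and 0.13). Aldh1a2, the enzyme that makes retinoic acid, had p400 log2 ratios of 1.51, 1.79, 1.99 and 1.08 (mean 1.59, limma adjusted p = 0.00105). Its Tip60 levels were -1.21, -1.20 and -1.22, against -2.41, -2.18, -2.30 and -2.16 in EGFP (difference 1.05, limma adjusted p = 6.80e-05). All knockdown values thus lay above EGFP, as for 28.5% of all genes in p400 and 19.5% in Tip60 knockdown. The retinoic acid receptor gene Rarg rose by 0.72 in p400 and 0.56 in Tip60 knockdown, and Rarb by 0.44 and 0.92 (limma adjusted p from 0.00062 to 0.0168). The p400 call of Rarb was lost without p400 replicate 2 or 3 (adjusted p up to 0.0809). Its probe was dim, with processed signals of 28.19 to 42.65 in EGFP. The Tip60 rise of Rarb ranged from 0.25 to 0.99 over the alternatives, all of which kept the call. The Tip60 call of Rarg was lost under 1 of 18 alternatives (adjusted p up to 0.0506). The receptor gene Rara was called in neither, at -0.24 in p400 and 0.08 in Tip60 knockdown (limma adjusted p = 0.0529 and 0.6365). Cyp26b1, of the same list, was not called in p400 (0.10, limma adjusted p = 0.296) and not tested in Tip60 knockdown. Dmrt1, a transcription factor of the germ line and gonad, fell by 0.47 in p400 and 0.52 in Tip60 knockdown (limma adjusted p = 0.00658 and 0.0025).

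Of 7 genes of cohesin and the kinetochore, 1 rose and 2 fell in p400 knockdown. Stag3, a meiotic cohesin subunit, stood at 0.50 (limma adjusted p = 0.00376), Sgo1, which protects centromeric cohesion, at -0.39 (0.00616), and Smc1a, the mitotic counterpart of Smc1b, at -0.33 (0.0274). The call of Smc1a was lost under 3 of 13 alternatives, among them leaving out p400 replicate 3 or 4 (adjusted p up to 0.175). None of 6 was called in Tip60 knockdown by limma, where 1 higher and 1 lower passed an unadjusted p of 0.05, and Stag3 stood at 0.28 (adjusted p = 0.0565). Of 8 further genes of the synaptonemal complex and axis, 3 rose and 1 fell in p400 and 3 rose in Tip60 knockdown. Syce3 and Tex12, of the central element like Syce1, rose by 0.57 and 0.47 in p400 and by 0.40 and 0.58 in Tip60 knockdown (limma adjusted p from 0.00361 to 0.02). Syce2, of the same element, fell by 0.26 on the log2 scale in p400 knockdown (0.0397), and Hormad2, an axis protein, rose by 0.66 in Tip60 knockdown (0.00235). The rise of Hormad2 ranged from 0.29 to 0.73 over the alternatives, all of which kept the call (adjusted p up to 0.0495). The Tip60 call of Tex12 was lost under 7 of 18 alternatives, among them leaving out Tip60 replicate 1 or 4 (adjusted p up to 0.265). That of Syce3 was lost under 3 of 18 (up to 0.157). The p400 call of Syce2 was lost under 6 of 13, among them leaving out any of the 4 p400 replicates (up to 0.233). Stag3 lost its p400 call under 2 of 13 (up to 0.0962) and Sgo1 under 1 (up to 0.0726).

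Of 3 tested genes of double-strand break formation, 1 rose in p400 knockdown, and 1 rose and 1 fell in Tip60 knockdown. Mei1 stood at 0.37 in p400 and 0.39 in Tip60 knockdown (limma adjusted p = 0.0179 and 0.0266), and Rec114 fell by 0.34 in Tip60 knockdown (0.00965). The Tip60 call of Mei1 was lost under 11 of 18 alternatives, among them leaving out Tip60 replicate 1 or 2 or EGFP replicate 1, 3 or 4 (adjusted p up to 0.236), and its p400 call without p400 replicate 2 (0.104). Strand exchange and crossing over had 2 rises and 3 falls among 15 genes in p400 and 4 rises among 14 in Tip60 knockdown. Rnf212, which stabilises crossovers, rose by 0.58 in p400 and 0.52 in Tip60 knockdown (0.00289 and 0.00649). In p400 knockdown Tex15 rose by 0.38, while Mnd1, which works with DMC1, fell by 0.43 and Mlh3, which resolves crossovers, by 0.40 (limma adjusted p from 0.00548 to 0.0168). The call of Tex15 was lost without p400 replicate 2 or 3 (adjusted p up to 0.0828). Those of Mnd1 and Mlh3 were each lost under 1 of 13 alternatives (up to 0.085 and 0.0772). In Tip60 knockdown Meiob, a single-stranded DNA binding protein of meiosis, rose by 0.55 (0.0025), and 4930432K21Rik by 0.53 (0.00851). Meiob stood at -0.11 in p400 knockdown, and the difference of -0.66 between the effects was called (adjusted p = 0.0384). Of 7 genes of telomere attachment and pairing, 1 rose and 2 fell in p400 knockdown (Terb2 0.35, Sun1 -0.34, Cdk2 -0.61, limma adjusted p from 0.00235 to 0.042), and Majin, an anchor of telomeres, rose by 0.61 among 6 in Tip60 knockdown (0.00962). The calls of Terb2 and Sun1 were lost under 7 and 4 of 13 alternatives, among them leaving out p400 replicate 2, 3 or 4 (adjusted p up to 0.17 and 0.106). Cdk2 lost its call under 1 of 13 (up to 0.0535). The Tip60 calls of Rnf212 and Majin were each lost under 3 of 18 alternatives (up to 0.089 and 0.0964). That of Rec114 was lost under 2 of 18 (up to 0.109) and that of 4930432K21Rik under 1 (up to 0.084).

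The list of repressors of meiosis genes in stem cells had 4 rises and 1 fall among 20 in p400 knockdown and 1 fall among 20 in Tip60 knockdown (medians 0.06 and -0.02). Called were thus 25% and 5% of the list, below the 35.9% and 24.8% over all genes. E2f6, Mga, Max, L3mbtl2, Rnf2 and Ring1, subunits of the Polycomb complex, were not called in either, with p400 values from -0.27 to 0.09. Of its other subunits, Pcgf6 rose by 0.32 (limma adjusted p = 0.0478) and Cbx3 fell by 0.70 in p400 knockdown (0.00121). Dnmt3a, a de novo DNA methyltransferase, rose by 1.16 (0.00188) and Atf7ip, a partner of the histone methyltransferase SETDB1, by 0.40 (0.0134). The rise of Dnmt3a ranged from 0.61 to 1.34 over the alternatives. Its call and that of Cbx3 were each lost under 1 of 13 (adjusted p up to 0.0753 and 0.0572). Dnmt3b stood at 0.36 in p400 (0.0261) and at -0.22 in Tip60 knockdown (0.0398). Its Tip60 call was lost under 11 of 18 alternatives, among them leaving out Tip60 replicate 1 or 2 or any EGFP replicate (adjusted p up to 0.25), and its p400 call under 5 of 13, among them leaving out p400 replicate 3 or 4 (up to 0.688). The call of Pcgf6 was lost under 9 of 13, among them leaving out p400 replicate 2, 3 or 4 (up to 0.974), and that of Atf7ip under 2, among them leaving out p400 replicate 2 (up to 0.333). With arrays centred on their median without loess Pcgf6 stood at -0.0045.

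**Figure D5:**
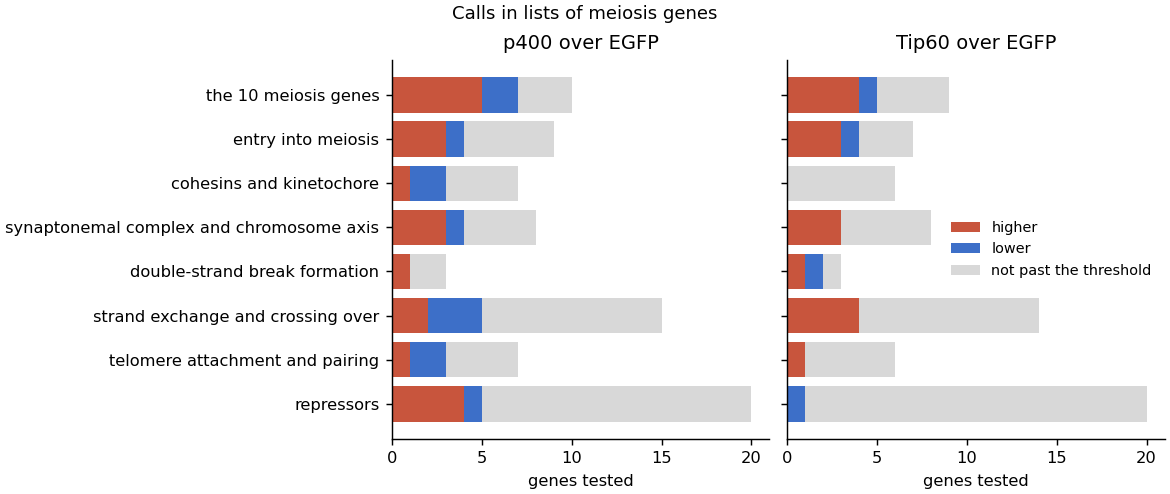
Number of genes tested in each list that were called higher (red), lower (blue) or not called (grey) in p400 over EGFP (left) and Tip60 over EGFP (right), limma adjusted p of 0.05. The 10 meiosis genes have 5 higher and 2 lower in p400 and 4 higher and 1 lower of 9 in Tip60 knockdown.

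Of the marker lists for other cells, that of 2-cell-like cells was called higher throughout and the others in part or not at all. Over all genes tested, 20.5% were called higher and 15.4% lower in p400 knockdown, and 15.0% and 9.82% in Tip60 knockdown. All 4 markers of 2-cell-like cells rose in both knockdowns, with a median of 4.33 in p400 and 2.56 in Tip60 knockdown and summed processed signals of 264300 to 497300 in p400 against 15790 to 33110 in EGFP, and of 222100 to 233800 in Tip60 against 37730 to 47640 in EGFP. Of 9 germ line markers beyond meiosis, 5 rose and 2 fell in p400 and 3 rose and 2 fell in Tip60 knockdown, with sums of 16570 to 25280 in p400 against 11830 to 18710 in EGFP, and of 18780 to 19540 in Tip60 against 14010 to 19240 in EGFP. Dazl, an RNA-binding protein of germ cells, stood highest among them at 2.07 in p400 and 1.30 in Tip60 knockdown (limma adjusted p = 0.000153 and 2.91e-05). Prdm1 fell by 0.74 in p400 and 0.45 in Tip60 knockdown (limma adjusted p = 0.00282 and 0.00336). Its Tip60 call was lost under 1 of 18 alternatives (adjusted p up to 0.0764). Dnd1 fell by 0.32 and 0.23 (0.0246 and 0.0371), calls that were lost under 4 of 13 and 10 of 18 alternatives. Ddx4, which defines the later germ line, stood at 0.03 in p400 and 0.02 in Tip60 knockdown (limma adjusted p = 0.843 and 0.896). Of 5 feeder fibroblast markers, 3 rose and 1 fell in p400 and 1 rose in Tip60 knockdown, with sums of 16490 to 18470 in p400 against 15930 to 19680 in EGFP, and of 25000 to 28510 in Tip60 against 21320 to 24940 in EGFP. Vim alone had 18330 to 21200 in single-colour EGFP, so that sum mostly reflects Vim and can hide changes of dimmer markers. Thy1 rose by 1.43 in p400 and 1.25 in Tip60 knockdown (limma adjusted p = 0.000711 and 1.06e-05). In p400 knockdown Col1a1 rose by 0.80 (0.0028) and Vim fell by 0.37 (0.00994), and neither was called in Tip60 knockdown. Of 4 Sertoli and gonadal markers, 3 could be tested in p400 (none higher, 1 lower by limma, and the same at an unadjusted p of 0.05) and 1 in Tip60 knockdown (not called), with sums of 139.7 to 236 in p400 against 189.8 to 218.3 in EGFP, and of 299.1 to 534.7 in Tip60 against 128.8 to 449.8 in EGFP. Of the 5 stem cell markers, 1 rose and 2 fell in p400 and 1 fell in Tip60 knockdown, with sums of 153500 to 199900 in p400 against 137900 to 171000 in EGFP, and of 187100 to 208000 in Tip60 against 177100 to 211800 in EGFP. Zfp42 alone had 105800 to 114300 in single-colour EGFP, so a large part of that sum is this gene. The p400 calls of Sox2, Zfp42 and Esrrb among the stem cell markers were lost under 7, 9 and 7 of 13 alternatives, and the Tip60 call of Sox2 under 9 of 18. The part of any of these cells in the values of the meiosis genes was not tested.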

How the data were processed

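Expression was measured on Agilent mouse arrays in 4 p400 knockdown, 4 Tip60 knockdown and 4 EGFP samples of single-colour arrays and the EGFP channels of the p400 arrays. Per the file headers, the authors' scans were read by Agilent Feature Extraction (version 9.5.1.1). Per the file headers, the deposited values are spot and background intensity, a processed intensity after background subtraction, and flags for spots well above background, saturated or outlying. The deposited two-colour files also hold a log10 ratio of red over green. The deposited series matrix holds log2 values, and the labels and headers used here do not give its scale, centring and normalization. Its p400 columns have medians of 0 to 0.01 and run as knockdown over EGFP (r with the ratio of red over green 0.816, -0.815, 0.824 and -0.797, after the dyes), and its single-colour columns have medians of 7.26 to 7.27. Probe positions are on build mm7.

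With limma 3.58.1 in R 4.3.3, the p400 arrays were corrected with normexp (offset 50), normalized by loess and fitted with a dye term. A single-colour level is log2 of the processed signal minus the 75th percentile of its array, and the fit held Tip60 replicates 1, 2 and 4 and all 4 EGFP replicates. Probes entered a test when 3 or more arrays of either RNA showed them well above background, and of several such probes the brightest stood for its gene. The 1639 control spots and outlier spots were left out. P values are two-sided and Benjamini-Hochberg adjusted over all genes tested (or all probes, where stated), with a threshold of 0.05. The difference between effects used the root of the summed squared standard errors and the smaller degrees of freedom, over genes with the same brightest probe in both fits. Each gene list above was described by counts and median alone. The code was run on simulated data with known changes, put into far fewer genes than the 6704 (p400) and 4211 (Tip60) called in the real data. The adjustment over genes depends on that number, so the shares recovered cannot be carried over to the real data as they stand. There the p400 fit recovered 33.8% of 1.5-fold and 82.1% of 2-fold changes, and the Tip60 fit 65.6% and 85.3%. The difference between effects recovered 0% of 1.5-fold, 9.8% of 2-fold and 81.7% of 4-fold changes. A difference between effects that was not called can thus be one that the test would miss.

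The named genes were the members, both targeted genes and the 2 largest rises and falls of each list in each knockdown, of which some marker genes were left out for length. Ddx4, Rara, Cyp26b1 and the Polycomb subunits other than Cbx3 were picked after their values were seen. So were Stag3 in Tip60, Rarb and Dnmt3b in p400 and Rarg, Syce3 and Rnf212 in Tip60 knockdown. The members, the lists and the tests were chosen with earlier results of these data known. Alternatives were other normalizations, background correction, filters, probe choice, dye term, slide, replicate number, Tip60 replicate 3 and leaving out each replicate. Deviations of same-numbered Tip60 and EGFP samples correlated at -0.286, -0.376 and -0.12. Each such pair lay on different slides, so these values cannot show whether the replicate numbers pair the samples. Tip60 replicates 1, 2 and 4 correlated best with EGFP replicates 4, 3 and 1, each on the same slide. The number of arrays limits the precision.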

Additional observations from a re-analysis of the deposited data

Results flagged for a closer look

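In groups of 4 samples, 1 sample was set against the spread of the other 3 with Dixon's test at the 95% level, for 33 groups of the members' tested probes. Chance flags about 1 in 20 such groups. The brighter Rec8 probe stood out in 2 of them: its log2 ratio was -0.92 in p400 replicate 3 and -0.48 to -0.41 on the other p400 arrays, and its level was 2.05 in Tip60 replicate 2 and 1.22 to 1.26 in the other Tip60 samples. The other Rec8 probe did not stand out in either group.

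The effects of the knockdowns differed by test for 3 members. The p400 minus Tip60 difference in log2 fold change was 1.19 for Stra8, -0.69 for Sycp3 and -0.85 for Smc1b.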

How the results depend on the processing

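Of the members' calls, those of Sycp1, Sycp2, Sycp3 and Syce1 in p400 knockdown and of Sycp1, Smc1b and Syce1 in Tip60 knockdown held under every alternative run. Some p400 calls held only at the edge of the threshold. With arrays scaled to a common spread the limma adjusted p of Syce1 rounded to 0.05 and that of Sycp3 was 0.04875. For Sycp2 it reached 0.04858 without p400 replicate 3. With arrays scaled to a common spread, the p400 comparison called 2937 genes and 4 members, and Stra8 (1.55, adjusted p = 0.05003), Smc1b (0.59) and Rec8 (-0.60) lost the call. Leaving out each p400 replicate gave 3444 to 6143 genes. The Tip60 comparison called 2802 genes with no filter on dim probes, 1681 within slide 2 and 1818 with the replicate block, under which 3 members were called, Sycp2 and Sycp3 losing the call. The replicate block changed no call of the other Tip60 members. It left 0 of 9 members with a called difference between the effects (limma standard errors, smaller degrees of freedom), where 3 passed an unadjusted p of 0.05. The Welch-Satterthwaite degrees of freedom, without the block, called 3. The series matrix values gave 5 members with a called difference, and leaving out each replicate gave 1 to 3.

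Signs turned as follows. Dmc1 in p400 ranged from -0.354 to 0.0786 with each replicate left out. Stra8 in Tip60 was -0.0252 with arrays centred on their median. Spo11 in Tip60 was -0.0063 with normexp and quantile normalization and -0.0375 in the series matrix values. Zfp42 in p400 was -0.15 and Pcgf6 -0.0045 with arrays centred on their median. For the difference between the effects, the series matrix values gave 0.56 for Sycp2, 0.0125 for Dmc1 and 0.07 for Spo11, and including Tip60 replicate 3 gave 0.0949 for Sycp2 and 0.0042 for Dmc1. Leaving out each replicate gave -0.25 to 0.11 for Sycp2 and -0.27 to 0.16 for Dmc1. The cause of these changes was not tested. Dim probes of Sycp2, Spo11 and Msh5 limit what can be said of those genes.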
